A study of Mus musculus with 8 samples.

Results

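Cell division was followed through 40 genes that encode mitotic kinases, kinetochore subunits, spindle motors and cytokinesis proteins, in mouse thymic epithelial cells (TECs), the stromal cells of the thymus that guide T-cell development. The 40 genes are a fixed list of names, drawn up by function when earlier results of these data were already known. All 40 were found among the 56923 genes of the count files, and all 40 passed the filter on low counts (at least 1 CPM, counts-per-million, in at least 3 libraries) among 14504 genes tested. Bulk RNA was read by QuantSeq, which sequences the 3′ ends of polyadenylated transcripts, in 8 libraries from wild-type mouse thymus that the labels list as untreated. The 4 groups of 2 libraries were freshly extracted TECs (*in vivo*), TECs cultured as a monolayer (2D), and TEC organoids on day 3 (D3) and day 7 (D7). The thymi were taken from E16.5 embryos of the C57BL/6J strain, and the stain used to sort TECs held antibodies to CD45, Ter119, CD31 and the PDGF receptors beside one to the epithelial marker EpCAM. The 2D cells grew on laminin and were collected after 3 days, when the monolayer was confluent. The organoids grew in Matrigel, a basement membrane gel, and both kinds of culture received a medium with the growth factor FGF7, with the ROCK inhibitor thiazovivin at the start of organoid culture. D3 organoids and 2D cells therefore had the same time in culture, whereas there was no 2D sample matched to D7. The labels call the 2 libraries of a group biological replicates. The authors give 2 mice per condition for *in vivo* TECs, 2D cells and organoids, without stating the organoid day. Whether a library pooled embryos is not given in the sources used here.

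Mitosis is started by the kinase CDK1 with its cyclins, A2 and then B1 and B2. CDC25 phosphatases switch CDK1 on, and the Polo-like and Aurora kinases build the spindle. Kinetochores, assembled on centromeres that carry the histone variant CENP-A, hold chromosomes to spindle microtubules through the NDC80 complex. Until every kinetochore is attached, the spindle assembly checkpoint keeps the anaphase-promoting complex (APC/C) off. The APC/C, helped by CDC20 and the ubiquitin-conjugating enzyme UBE2C, then has cyclin B degraded, and the midzone proteins and the contractile ring divide the cell. Transcripts of most of these genes rise in G2 and mitosis, so that their level in bulk RNA is a common readout of how many cells are dividing. Fetal TECs are known to proliferate in the thymus before birth.

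The libraries held 5084715 to 7612532 counts. Counts were scaled by TMM, which sets a library size from the genes that change least, with factors of 0.880 to 1.09, and CPM are given on that scale. Genes annotated as ribosomal RNA took 16.6% to 24.3% of counts. All 7 TEC markers (Epcam, Krt8, Krt18, Krt5, Foxn1, Psmb11 and Ly75) were above 3 counts in both libraries *in vivo* and at D7, and 6 of the 7 were so in 2D and at D3. Their summed level was 3610 and 3998 CPM *in vivo* and 6212 and 5452 CPM in 2D. In organoids it was lower, at 1277 and 1143 CPM at D3 and 1284 and 1314 CPM at D7. Such a sum weighs the abundant markers most, so that it does not rank the groups by TEC identity. Levels of single markers were not compared between groups. In the paper, key TEC genes lay closer to *in vivo* TECs in organoids than in monolayer culture. A list of 14 thymocyte genes summed to 729 and 319 CPM in the *in vivo* libraries and to between 3.72 and 13.9 CPM in the 6 cultured libraries, where thymocyte-defining Cd3d was at 0 to 1.0 CPM. Thymocytes also divide. The part of their RNA in the comparisons with *in vivo* TECs was not tested, and the 3 comparisons among cultures do not use those libraries as a group. Sums of the endothelial, erythroid and myeloid lists were at most 12.3 CPM in any library, and mesenchymal genes summed to 16.5 to 64.6 CPM, highest in D7 organoids.

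D3 organoids held the highest levels of the mitotic genes and 2D cells the lowest. Averaged over the 40 genes, log2(CPM + 1) was 6.11 and 5.96 in the *in vivo* libraries, 4.90 and 4.70 in 2D, 6.78 and 6.56 in D3 organoids and 5.79 and 5.68 in D7 organoids, so that no 2 groups overlapped. Both D3 libraries ranked above the other 6 for 36 of the 40 genes, a pattern held by 8.06% of all genes tested. Cdc25b, Cenpf, Tpx2 and Anln were the exceptions. Both 2D libraries ranked below the other 6 for 31 genes, against 18.8% of all genes tested. For the other 9 genes, Cdk1, Aurka, Bub1, Bub3, Ube2c, Cenpa, Aurkb, Anln and Ect2, at least 1 D7 or *in vivo* library was at or below the higher 2D library. By group mean, the order D3, *in vivo*, D7, 2D from high to low held for 27 genes, and D3, D7, *in vivo*, 2D for 7 genes. In bulk RNA, fewer dividing cells cannot be told apart from less mitotic RNA per cell.

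**Figure D1:**
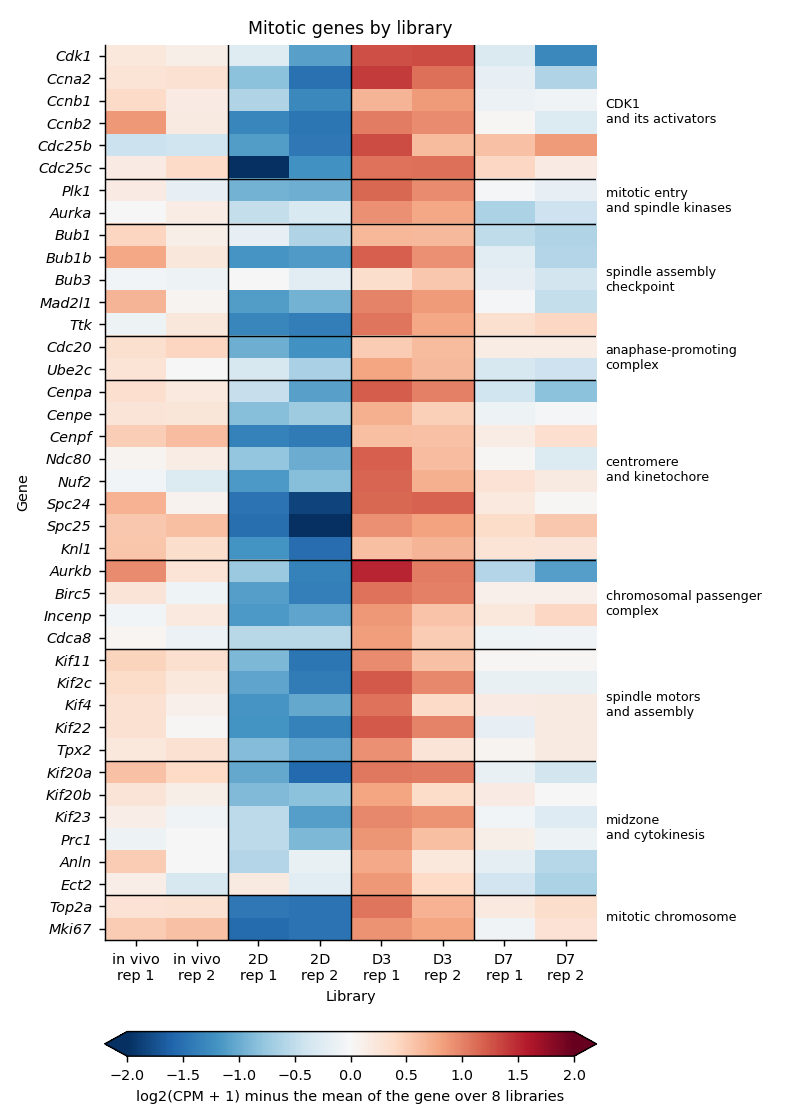
Level of each of the 40 mitotic genes (rows, grouped by role) in each of the 8 libraries (columns), as log2(CPM + 1) minus the mean of that gene over the 8 libraries. Red is above and blue below the mean; the 2 D3 columns are red and the 2 columns of 2D cells are blue for nearly all genes, while Cdc25b is lower *in vivo* than in both organoid groups, and Bub3 and Ect2 are near their mean in 2D.

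One edgeR model with 4 group means was fitted to the 8 libraries, and each comparison was a quasi-likelihood test of 2 of these means, adjusted over the 14504 genes by Benjamini-Hochberg with a threshold of 0.05. Fold changes are log2 of the first group over the second, ± SE, with n = 2 libraries a group. In D3 organoids against 2D cells, all 40 genes were higher. Their log2 fold changes ran from 0.56 to 3.06 around a median of 1.98. With each library left out in turn, 37 of the 40 calls held every time. Of all genes tested, 19.3% were higher there, and their median was 0.03. In 2D cells against *in vivo* TECs, 36 of the 40 were lower and none was higher (background 21.7% lower and 19.9% higher), with a median of -1.28 beside -0.06 for all genes. Of these 36 calls, 27 held whichever library was left out. In D7 organoids against D3 organoids, 30 were lower and none was higher (background 9.91% lower and 10.9% higher), and the median was -0.89 beside 0.06. In D7 organoids against 2D cells, 31 were higher and none was lower (background 24.4% higher and 21.1% lower), and the median was 1.01 beside 0.10.

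The organoids also departed from *in vivo* TECs, in opposite directions on the 2 days. In D3 organoids, 22 of the 40 genes were higher than *in vivo* and none was lower (background 14.1% higher and 14.0% lower), with a median log2 fold change of 0.62 beside -0.01 for all genes. Without D3 replicate 1 the count was 10, and 9 of the 22 calls held whichever library was left out (Cdk1, Ccna2, Cdc25b, Plk1, Ttk, Birc5, Kif22, Kif23 and Prc1). In D7 organoids, 12 genes were lower than *in vivo* and 1, Cdc25b, was higher (background 16.8% lower and 18.0% higher), with a median of -0.26 beside 0.01. Here 3 calls were left without *in vivo* replicate 1, and 3 without D7 replicate 2, and only the calls of Cdc25b and Aurkb held whichever library was left out. Of the *in vivo* libraries, replicate 1 had the higher sum of thymocyte genes (729 against 319 CPM) and the higher level for 26 of the 40 genes. The part of thymocyte RNA in these calls was not tested. The 6 comparisons share groups, so that they are not independent of each other.

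**Figure D2:**
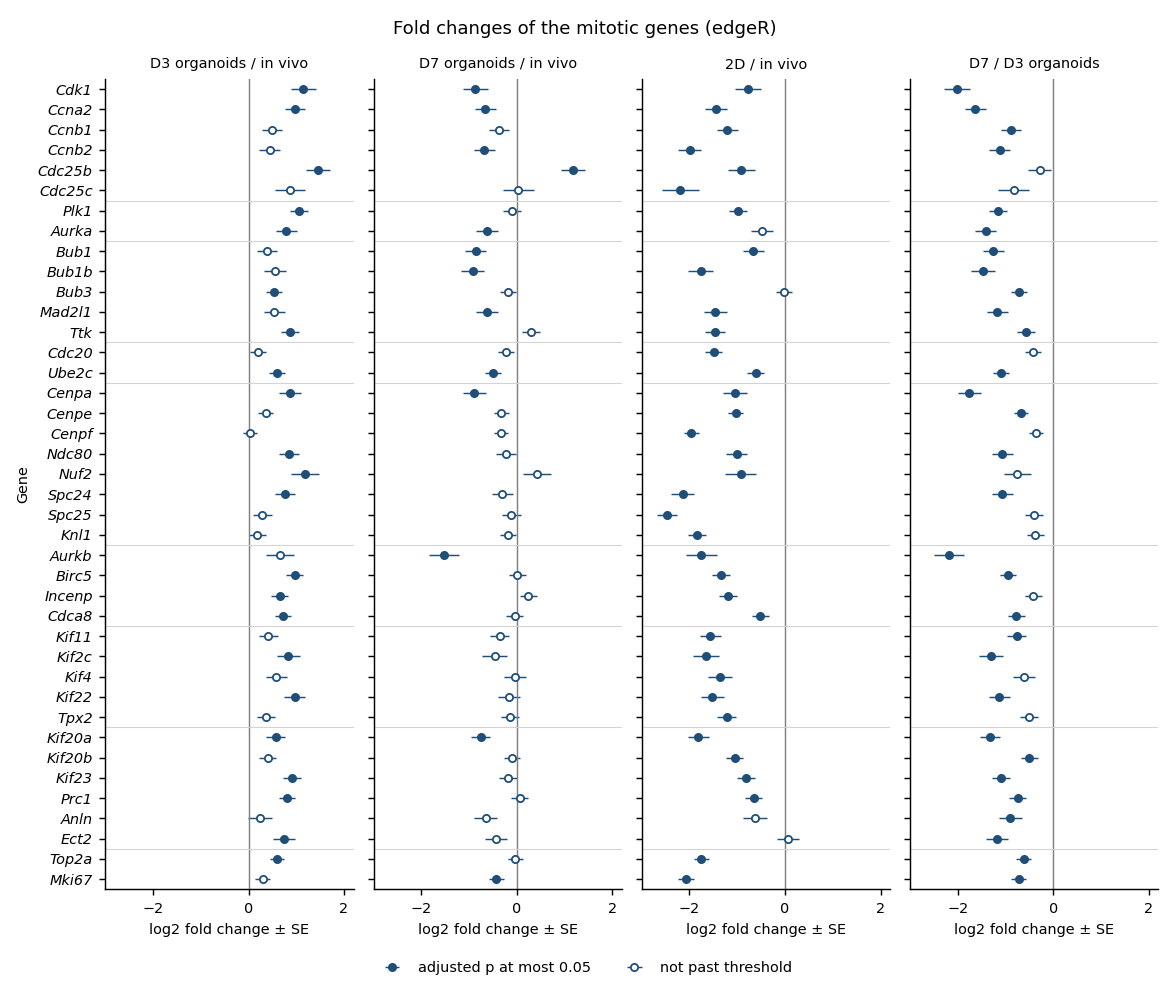
Log2 fold change ± SE (edgeR, 2 libraries a group) of each of the 40 genes in D3 organoids, D7 organoids and 2D cells over *in vivo* TECs and in D7 over D3 organoids. Filled points passed an adjusted p of 0.05 over all genes tested; points lie to the right of 0 for all 40 genes at D3, to the left for 39 of 40 in 2D and for all 40 in D7 over D3, while D7 over *in vivo* scatters from -1.53 (Aurkb) to 1.18 (Cdc25b).

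CDK1 and its activators did not all follow one course. Cdk1, the kinase that drives entry into mitosis, was at 123 and 115 CPM *in vivo*, 89.3 and 49.6 CPM in 2D, 260.1 and 265 CPM at D3 and 86.2 and 42.7 CPM at D7 (ENSMUSG00000019942, chr10:69170976-69236595). Both D3 libraries stood above all others, and the D7 libraries reached down to the 2D range, with replicates that differed 2.02-fold at D7 and 1.80-fold in 2D. It rose at D3 over *in vivo* (log2 fold change 1.15 ± 0.26, adjusted p = 0.0032, edgeR) and fell from D3 to D7 (log2 fold change -2.01 ± 0.27, adjusted p = 9.4e-05). Both calls held without any 1 library. D7 organoids and 2D cells could not be separated (log2 fold change -0.09 ± 0.27, adjusted p = 0.81). The lower level at D7 than *in vivo* (log2 fold change -0.87 ± 0.27, adjusted p = 0.019) was lost without *in vivo* replicate 1 (adjusted p = 0.0802) or D7 replicate 2 (adjusted p = 0.238). The lower level in 2D than *in vivo* (log2 fold change -0.77 ± 0.27, adjusted p = 0.029) was lost without 2D replicate 2 (adjusted p = 0.32), *in vivo* replicate 1 (adjusted p = 0.0988), *in vivo* replicate 2 (adjusted p = 0.0631) or D3 replicate 2 (adjusted p = 0.0603). The annotated span of Cdk1 overlaps Ank3 on the other strand, and the strand setting of the counting is not given in the sources used here. Ank3 was at 651 and 871 CPM *in vivo*, 206 and 261 CPM in 2D, 487 and 575 CPM at D3 and 388 and 419.8 CPM at D7. Ank3 was thus highest *in vivo* and Cdk1 at D3. Both genes were lower in 2D and at D7 than *in vivo*, and lower at D7 than at D3. Whether reads of Ank3 were counted for Cdk1 was not tested.

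The cyclins that pair with CDK1 were also highest at D3. Group means of Ccna2 (cyclin A2) were 61.5 CPM *in vivo*, 22.6 in 2D, 121 at D3 and 38.7 at D7. Cyclin A2 rose at D3 over *in vivo* (log2 fold change 0.97 ± 0.22, adjusted p = 0.0027). The B-type cyclins did not pass the threshold there, at 0.50 ± 0.21, adjusted p = 0.086 for Ccnb1 and 0.44 ± 0.22, adjusted p = 0.15 for Ccnb2. All 3 cyclins fell from D3 to D7, by 1.63 (Ccna2), 0.87 (Ccnb1) and 1.12 (Ccnb2) on the log2 scale. All 3 remained higher at D7 than in 2D. Those last calls were lost for Ccna2 without 2D replicate 2 (adjusted p = 0.171) or D7 replicate 1 (adjusted p = 0.16) and for Ccnb1 without 2D replicate 2 (adjusted p = 0.0956).

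Of the 2 CDC25 phosphatases, which remove inhibitory phosphates from CDK1, Cdc25b parted from the rest. Cdc25b was at 17.6 and 18.1 CPM *in vivo*, 10.5 and 8.35 CPM in 2D, 60.7 and 37.9 CPM at D3 and 36.8 and 44.3 CPM at D7 (ENSMUSG00000027330, chr2:131027866-131044913). All 4 organoid libraries were above both *in vivo* libraries, and these were above both 2D libraries. Cdc25b rose over *in vivo* at D3 (log2 fold change 1.46 ± 0.25, adjusted p = 0.00027) and at D7 (log2 fold change 1.18 ± 0.25, adjusted p = 0.0016), the largest increase of any of the 40 genes in both comparisons, and both calls held without any 1 library. The D3 and D7 libraries overlapped, and the difference did not pass (log2 fold change -0.28 ± 0.24, adjusted p = 0.45). Cdc25c had few counts, at 11.7 and 13.7 CPM *in vivo*, 1.64 and 3.90 CPM in 2D, 23.0 and 23.2 CPM at D3 and 14.1 and 11.7 CPM at D7 (ENSMUSG00000044201), and its lowest library held 9 counts. Its increase in D3 organoids over 2D cells (log2 fold change 3.06 ± 0.38, adjusted p = 5.7e-06) was the largest of the 40, and from D3 to D7 it did not pass (log2 fold change -0.83 ± 0.32, adjusted p = 0.072). That change was close to the median of the 40 genes, -0.89. At D3 over *in vivo*, Cdc25c lay just outside the threshold (0.86 ± 0.32, adjusted p = 0.051).

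Among the mitotic kinases outside the CDK1 group, Plk1, which acts at centrosomes, kinetochores and the midzone, was at 64.8 and 50.9 CPM *in vivo*, 29.5 and 28.8 CPM in 2D, 129 and 112 CPM at D3 and 56.7 and 51.2 CPM at D7 (ENSMUSG00000030867, chr7:121758646-121769108). The *in vivo* and D7 libraries shared one range, with D3 above and 2D below it. Plk1 rose at D3 over *in vivo* (log2 fold change 1.06 ± 0.18, adjusted p = 0.00026), was lower in 2D than *in vivo* (-0.99 ± 0.19, adjusted p = 0.00048), and fell from D3 to D7 (-1.15 ± 0.18, adjusted p = 0.00036). D7 organoids did not differ from *in vivo* TECs beyond the threshold (log2 fold change -0.10 ± 0.18, adjusted p = 0.73). Aurka, the Aurora kinase of the spindle poles, fell from D3 to D7 (log2 fold change -1.41 ± 0.22, adjusted p = 0.00037), and in 2D its level against *in vivo* did not pass the threshold (-0.49 ± 0.23, adjusted p = 0.097). Its rise at D3 over *in vivo* (0.79 ± 0.22, adjusted p = 0.011) was lost without *in vivo* replicate 1 (adjusted p = 0.0594) or D3 replicate 1 (adjusted p = 0.0778). Tpx2, the spindle assembly factor that activates Aurora A, was at 139.6 and 149.5 CPM *in vivo*, 66.2 and 57.7 CPM in 2D, 229 and 145 CPM at D3 and 126 and 137 CPM at D7 (ENSMUSG00000027469, chr2:152689854-152737245). One of the 2 D3 libraries stood far above the *in vivo* range and the other inside it. Tpx2 was lower in 2D than *in vivo* (log2 fold change -1.22 ± 0.20, adjusted p = 8.2e-05). It did not pass at D3 over *in vivo* (0.37 ± 0.19, adjusted p = 0.17) or from D3 to D7 (-0.51 ± 0.19, adjusted p = 0.068), and in both it passed without D3 replicate 2 (adjusted p = 0.0089 and 0.006).

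In the spindle assembly checkpoint, Bub1, Bub1b, Mad2l1 and Ttk were lower in 2D than *in vivo*, with log2 fold changes of -0.66, -1.76, -1.46 and -1.46. The Bub1 call was lost without 2D replicate 2 (adjusted p = 0.206), *in vivo* replicate 1 (adjusted p = 0.142) or D3 replicate 2 (adjusted p = 0.0501). Bub3, which brings BUB1 and BUBR1 to kinetochores, stood apart, at 86.3 and 83.5 CPM *in vivo*, 90.2 and 76.8 CPM in 2D, 115 and 131 CPM at D3 and 80.5 and 69.6 CPM at D7 (ENSMUSG00000066979, chr7:131161880-131178553). Its 2D libraries surrounded the *in vivo* values (log2 fold change -0.02 ± 0.17, adjusted p = 0.93), and its range over all libraries was the narrowest of the genes shown in the plot of CPM by library. It rose at D3 over *in vivo* (log2 fold change 0.54 ± 0.17, adjusted p = 0.022). This call was lost without *in vivo* replicate 1 (adjusted p = 0.0672), *in vivo* replicate 2 (adjusted p = 0.0789) or D3 replicate 2 (adjusted p = 0.0832). The fall from D3 to D7 (-0.72 ± 0.17, adjusted p = 0.0061) was lost without D7 replicate 2 (adjusted p = 0.0934). Bub3 was also higher at D3 than in 2D (0.56 ± 0.17, adjusted p = 0.013), lost without 2D replicate 2 (adjusted p = 0.12) or D3 replicate 2 (adjusted p = 0.0843). All 5 checkpoint genes fell from D3 to D7, by 0.57 (Ttk) to 1.47 (Bub1b) on the log2 scale. The Ttk call was lost without 2D replicate 1 (adjusted p = 0.0547), 2D replicate 2 (adjusted p = 0.0548), D3 replicate 1 (adjusted p = 0.267), D7 replicate 1 (adjusted p = 0.186) or D7 replicate 2 (adjusted p = 0.149). At D7 against *in vivo*, Ttk, the kinase that starts checkpoint signalling, had a positive value that did not pass (0.30 ± 0.19, adjusted p = 0.24), while Bub1 and Bub1b were lower (-0.86 and -0.92). These calls were lost for Bub1 without *in vivo* replicate 1 (adjusted p = 0.0542) or D7 replicate 2 (adjusted p = 0.0532) and for Bub1b without *in vivo* replicate 1 (adjusted p = 0.101) or D7 replicate 2 (adjusted p = 0.0878). The span of Bub3 overlaps Fgfr2 on the other strand, which was at 220.2 and 194 CPM *in vivo*, 26.2 and 20.6 CPM in 2D, 177 and 168 CPM at D3 and 57.3 and 38.6 CPM at D7. Fgfr2 was lowest in 2D, where Bub3 was close to *in vivo*, and both genes were lower at D7 than at D3. Whether reads of Fgfr2 were counted for Bub3 was not tested.

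The APC/C arm held Cdc20, the activator that the checkpoint restrains, and Ube2c, the ubiquitin-conjugating enzyme that works with the APC/C. Ube2c was at 141 and 116 CPM *in vivo*, 93.1 and 74.3 CPM in 2D, 203 and 183 CPM at D3 and 93.5 and 87.6 CPM at D7 (ENSMUSG00000001403, chr2:164611768-164620742). D3 libraries were highest, and D7 and 2D libraries shared one low range. Ube2c fell from D3 to D7 (log2 fold change -1.09 ± 0.17, adjusted p = 0.00033), and this call held without any 1 library. It did not separate D7 from 2D (log2 fold change 0.11 ± 0.17, adjusted p = 0.62). The rise at D3 over *in vivo* (0.59 ± 0.17, adjusted p = 0.014) was lost without *in vivo* replicate 2 (adjusted p = 0.108) or D3 replicate 1 (adjusted p = 0.0904). Lower levels than *in vivo* in 2D (-0.62 ± 0.17, adjusted p = 0.0078) were lost without 2D replicate 2 (adjusted p = 0.099) or *in vivo* replicate 1 (adjusted p = 0.0801). At D7 the lower level (-0.50 ± 0.17, adjusted p = 0.029) was lost without *in vivo* replicate 1 (adjusted p = 0.218), D7 replicate 1 (adjusted p = 0.0797) or D7 replicate 2 (adjusted p = 0.162). Cdc20 had means of 92.9 CPM *in vivo*, 32.9 in 2D, 107 at D3 and 79.5 at D7. It was lower in 2D than *in vivo* (log2 fold change -1.49 ± 0.18, adjusted p = 2.4e-06), and from D3 to D7 it did not pass (-0.43 ± 0.17, adjusted p = 0.078).

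**Figure D3:**
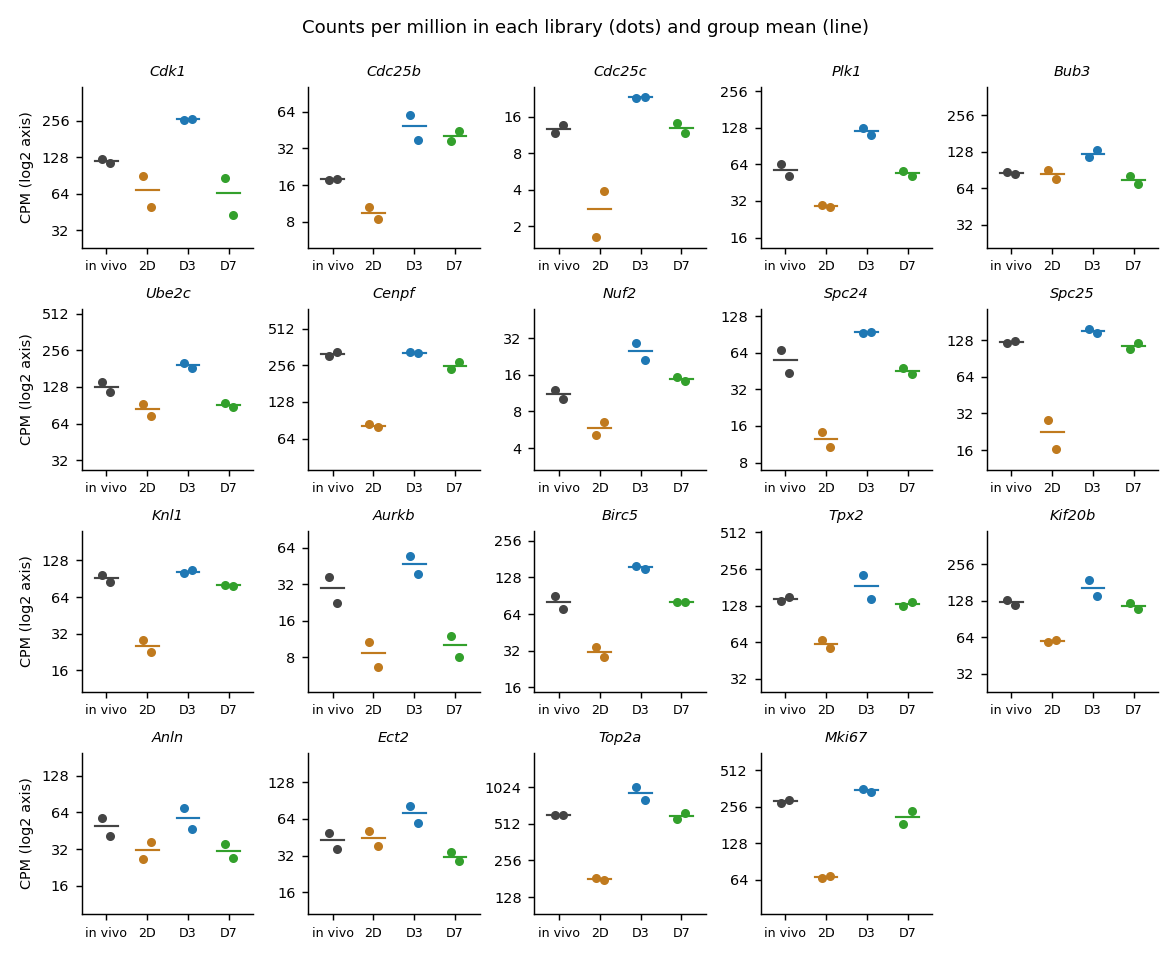
CPM of 19 mitotic genes in each library (dots) with the mean of the 2 libraries of a group (line), on log2 axes that all span the same ratio from bottom to top. D3 is the highest group for most genes; Cenpf, Knl1 and Spc25 vary little across *in vivo*, D3 and D7 and are lower in 2D, whereas the D7 and 2D dots of Cdk1 and Aurkb overlap.

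The kinetochore genes were all lower in 2D than *in vivo*, 8 of 8, with a median log2 fold change of -1.44. The Cenpa call was lost without 2D replicate 2 (adjusted p = 0.0534). Cenpf, a large kinetochore protein that accumulates in G2, was at 305 and 333 CPM *in vivo*, 83.7 and 80.0 CPM in 2D, 328 and 323 CPM at D3 and 238 and 271 CPM at D7 (ENSMUSG00000026605, chr1:189372752-189420315). *In vivo* and D3 libraries overlapped (log2 fold change 0.03 ± 0.14, adjusted p = 0.9), the D7 libraries lay a little below them, and the 2D libraries lay far below. In 2D against *in vivo*, Cenpf was lower (log2 fold change -1.96 ± 0.15, adjusted p = 1.5e-08), and in D7 organoids it remained higher than in 2D (1.64 ± 0.15, adjusted p = 1.5e-07). D7 against D3 did not pass (log2 fold change -0.35 ± 0.14, adjusted p = 0.094). Knl1, the scaffold on which checkpoint proteins gather, gave nearly the same picture at 97.8 and 84.5 CPM *in vivo*, 28.4 and 22.5 CPM in 2D, 101 and 106 CPM at D3 and 80.5 and 79.7 CPM at D7 (ENSMUSG00000027326, chr2:118877598-118935982). It was lower in 2D than *in vivo* (log2 fold change -1.84 ± 0.19, adjusted p = 4e-07), and neither organoid day differed from *in vivo* past the threshold (0.19 ± 0.17, adjusted p = 0.47 at D3 and -0.19 ± 0.17, adjusted p = 0.44 at D7). Cenpa, the centromeric histone, differed from both: its means were 35.6 CPM *in vivo*, 17.2 in 2D, 65.0 at D3 and 19.1 at D7, and it fell from D3 to D7 (log2 fold change -1.75 ± 0.24, adjusted p = 0.00011) to a level not separated from 2D (0.16 ± 0.25, adjusted p = 0.64).

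The 4 subunits of the NDC80 complex, which binds microtubules as a unit of 1 copy each, had unlike changes in RNA. Spc25 was at 122 and 127 CPM *in vivo*, 28.6 and 16.3 CPM in 2D, 158 and 146 CPM at D3 and 108 and 122 CPM at D7 (ENSMUSG00000005233, chr2:69009753-69036574). The 2D libraries fell far below the other 6, and the largest decrease of any mitotic gene in 2D against *in vivo* was here (log2 fold change -2.47 ± 0.22, adjusted p = 6.9e-08). Spc24 was at 68.1 and 43.7 CPM *in vivo*, 14.4 and 10.8 CPM in 2D, 94.0 and 95.8 CPM at D3 and 47.8 and 42.5 CPM at D7 (ENSMUSG00000074476, chr9:21666727-21671791). It too was lower in 2D than *in vivo* (log2 fold change -2.15 ± 0.24, adjusted p = 1.6e-06), and at D7 than at D3 (-1.07 ± 0.22, adjusted p = 0.0022). Its higher level at D3 than *in vivo* (0.77 ± 0.21, adjusted p = 0.012) was lost without *in vivo* replicate 2 (adjusted p = 0.123) or D3 replicate 1 (adjusted p = 0.0539). For the other pair of subunits, also lower in 2D than *in vivo*, the log2 fold changes were -1.01 ± 0.23, adjusted p = 0.0017 for Ndc80 and -0.93 ± 0.32, adjusted p = 0.028 for Nuf2. Nuf2 was at 12.0 and 10.2 CPM *in vivo*, 5.09 and 6.50 CPM in 2D, 29.2 and 21.1 CPM at D3 and 15.5 and 14.2 CPM at D7 (ENSMUSG00000026683, chr1:169325503-169359098), highest in both D3 libraries. It rose at D3 over *in vivo* (log2 fold change 1.18 ± 0.29, adjusted p = 0.0051). This call was lost without D3 replicate 1 (adjusted p = 0.0836), and its 2D call was lost without 2D replicate 1 (adjusted p = 0.16), 2D replicate 2 (adjusted p = 0.0502) or *in vivo* replicate 1 (adjusted p = 0.0968). Spc25 did not pass at D3 over *in vivo* (0.29 ± 0.19, adjusted p = 0.3) or from D3 to D7 (-0.40 ± 0.19, adjusted p = 0.16). Whether the changes differ between subunits was not tested.

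The chromosomal passenger complex corrects faulty attachments and later guides cytokinesis. From D3 to D7 the log2 fold changes of its 4 genes were all negative but of unlike size. Whether they differ between the genes was not tested. Aurkb, the kinase, was at 36.7 and 22.6 CPM *in vivo*, 10.7 and 6.68 CPM in 2D, 55.1 and 38.6 CPM at D3 and 12.0 and 8.11 CPM at D7 (ENSMUSG00000020897, chr11:68936467-68944764). D7 and 2D libraries shared one low range. The *in vivo* and D3 libraries lay above it. From D3 to D7, Aurkb fell more than any other of the 40 genes (log2 fold change -2.19 ± 0.31, adjusted p = 0.00015). It was also lower than *in vivo* at D7 (-1.53 ± 0.31, adjusted p = 0.0011) and in 2D (-1.76 ± 0.32, adjusted p = 0.00032), and these calls held without any 1 library. D7 did not separate from 2D (log2 fold change 0.23 ± 0.34, adjusted p = 0.62). Birc5 (survivin), which docks the complex on centromeres, was at 89.3 and 70.1 CPM *in vivo*, 34.4 and 28.4 CPM in 2D, 160.0 and 150.4 CPM at D3 and 80.1 and 80.5 CPM at D7 (ENSMUSG00000017716, chr11:117740040-117746581). It rose at D3 over *in vivo* (log2 fold change 0.96 ± 0.17, adjusted p = 0.00041), fell from D3 to D7 (-0.95 ± 0.17, adjusted p = 0.0011) and did not differ past the threshold from *in vivo* at D7 (0.01 ± 0.17, adjusted p = 0.97), with D7 libraries inside the *in vivo* range. The scaffold Incenp and borealin (Cdca8) also rose at D3 over *in vivo* (log2 fold changes 0.65 and 0.73). These calls were lost for Incenp without *in vivo* replicate 1 (adjusted p = 0.0835) or D3 replicate 1 (adjusted p = 0.105) and for Cdca8 without D3 replicate 1 (adjusted p = 0.0591). From D3 to D7, Cdca8 fell (-0.77 ± 0.17, adjusted p = 0.0042), a call lost without D3 replicate 1 (adjusted p = 0.0617). Incenp did not pass there (-0.41 ± 0.18, adjusted p = 0.11).

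The 5 spindle genes Kif11, Kif2c, Kif4, Kif22 and Tpx2 were all lower in 2D than *in vivo*, at log2 fold changes of -1.65 to -1.22, and all higher at D7 than in 2D, at 1.08 to 1.36. None of the 5 differed past the threshold between D7 organoids and *in vivo* TECs. Kif2c, which dismantles microtubule ends, and Kif22, which pushes chromosome arms, rose at D3 over *in vivo* (log2 fold changes 0.84 ± 0.25, adjusted p = 0.017 and 0.97 ± 0.22, adjusted p = 0.0027). The Kif2c call was lost without *in vivo* replicate 2 (adjusted p = 0.0688) or D3 replicate 1 (adjusted p = 0.133). Kif11, the motor that separates the spindle poles, did not pass there (0.41 ± 0.20, adjusted p = 0.14). D3 replicate 1 was 1.64 times D3 replicate 2 for Kif4, the widest gap between D3 replicates of the 40 genes.

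Genes of the midzone and of cytokinesis included Ect2, the only 1 of the 40 with a positive value in 2D against *in vivo*. Ect2, the exchange factor that activates RhoA at the division plane, was at 49.3 and 36.0 CPM *in vivo*, 50.9 and 38.1 CPM in 2D, 82.5 and 59.4 CPM at D3 and 34.1 and 28.7 CPM at D7 (ENSMUSG00000027699, chr3:27151371-27208029). 2D and *in vivo* libraries overlapped (log2 fold change 0.07 ± 0.23, adjusted p = 0.85), the D3 libraries were highest, and the D7 libraries were the lowest of the 8, the only gene of the 40 with that pattern (10.5% of all genes tested had it). Ect2 fell from D3 to D7 (log2 fold change -1.17 ± 0.23, adjusted p = 0.0019). Its rise at D3 over *in vivo* (0.74 ± 0.23, adjusted p = 0.022) was lost without *in vivo* replicate 2 (adjusted p = 0.149) or D3 replicate 1 (adjusted p = 0.23). Its rise over 2D (0.67 ± 0.23, adjusted p = 0.027) was lost without 2D replicate 2 (adjusted p = 0.222) or D3 replicate 1 (adjusted p = 0.256). Anln, the anillin that scaffolds the contractile ring, was at 57.8 and 40.6 CPM *in vivo*, 26.7 and 36.6 CPM in 2D, 69.3 and 47.0 CPM at D3 and 35.1 and 26.9 CPM at D7 (ENSMUSG00000036777, chr9:22242402-22300501). D7 and 2D libraries overlapped, and D3 and *in vivo* libraries overlapped. Anln was higher at D3 than in 2D (log2 fold change 0.87 ± 0.25, adjusted p = 0.011), lost without 2D replicate 1 (adjusted p = 0.13) or D3 replicate 1 (adjusted p = 0.151), and lower at D7 than at D3 (-0.90 ± 0.25, adjusted p = 0.017), lost without D3 replicate 1 (adjusted p = 0.203) or D7 replicate 2 (adjusted p = 0.162). Against *in vivo* it lay just outside the threshold in 2D (-0.63 ± 0.25, adjusted p = 0.053) and at D7 (-0.65 ± 0.25, adjusted p = 0.051).

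The 3 midzone kinesins Kif20a, Kif20b and Kif23 were lower in 2D than *in vivo*. For Kif23 (log2 fold change -0.82 ± 0.19, adjusted p = 0.0024), the call was lost without 2D replicate 2 (adjusted p = 0.0547). Kif20a, which carries the passenger complex to the midzone, was lower in 2D than *in vivo* (log2 fold change -1.82 ± 0.22, adjusted p = 3.1e-06) and fell from D3 to D7 (-1.32 ± 0.20, adjusted p = 0.00029). Its span overlaps Brd8 on the other strand, which held more counts, at 129 and 149 CPM *in vivo*, 89.1 and 97.8 CPM in 2D, 182 and 178 CPM at D3 and 169 and 160.2 CPM at D7. Brd8 and Kif20a were both highest at D3 and lowest in 2D, and at D7 Brd8 was above *in vivo* and Kif20a below. Cdc23 also overlaps this span on the other strand, with 2251 counts over the 8 libraries beside 2554 for Kif20a. Whether reads of Brd8 or Cdc23 were counted for Kif20a was not tested. Kif20b, a related kinesin, was at 130.4 and 119 CPM *in vivo*, 58.4 and 61.3 CPM in 2D, 188 and 141 CPM at D3 and 123 and 109 CPM at D7 (ENSMUSG00000024795, chr19:34899752-34953149). *In vivo* and D7 libraries overlapped, D3 libraries were above them and 2D libraries below. Kif20b was lower in 2D than *in vivo* (log2 fold change -1.06 ± 0.18, adjusted p = 0.00012), and its fall from D3 to D7 (-0.50 ± 0.17, adjusted p = 0.047), the smallest of the 6 midzone and cytokinesis genes, was lost without 2D replicate 1 (adjusted p = 0.0621), 2D replicate 2 (adjusted p = 0.0619), D3 replicate 1 (adjusted p = 0.371), D7 replicate 1 (adjusted p = 0.0881) or D7 replicate 2 (adjusted p = 0.296). Kif23, the centralspindlin motor, and Prc1, which bundles midzone microtubules, rose at D3 over *in vivo* (log2 fold changes 0.91 ± 0.19, adjusted p = 0.0013 and 0.80 ± 0.18, adjusted p = 0.0023), and both calls held without any 1 library.

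Levels of the 2 chromosome proteins followed the order of the whole set. Top2a, the topoisomerase that untangles sister chromatids, was at 605 and 610.0 CPM *in vivo*, 183 and 177 CPM in 2D, 1032 and 800.1 CPM at D3 and 563 and 628 CPM at D7 (ENSMUSG00000020914, chr11:98883769-98915062). D7 and *in vivo* libraries overlapped, D3 libraries were above and 2D libraries below. Top2a was lower in 2D than *in vivo* (log2 fold change -1.76 ± 0.16, adjusted p = 7.7e-08), and at D7 it did not differ past the threshold from *in vivo* (-0.03 ± 0.15, adjusted p = 0.91). Its rise at D3 over *in vivo* (0.59 ± 0.15, adjusted p = 0.0066) was lost without D3 replicate 1 (adjusted p = 0.0783), and its fall from D3 to D7 (-0.62 ± 0.15, adjusted p = 0.0073) without D3 replicate 1 (adjusted p = 0.0812) or D7 replicate 1 (adjusted p = 0.0706). Mki67, which encodes the proliferation marker Ki67 that coats mitotic chromosomes, was at 277 and 291 CPM *in vivo*, 66.2 and 68.5 CPM in 2D, 359 and 337 CPM at D3 and 185 and 237 CPM at D7 (ENSMUSG00000031004, chr7:135291513-135318299). The order was D3, *in vivo*, D7 and 2D with no overlap between groups. The step from *in vivo* to 2D (log2 fold change -2.08 ± 0.16, adjusted p = 1.8e-08) passed where that from *in vivo* to D3 did not (0.29 ± 0.15, adjusted p = 0.17). Mki67 fell from D3 to D7 (-0.72 ± 0.15, adjusted p = 0.0033), lost without D7 replicate 1 (adjusted p = 0.0616). It was lower at D7 than *in vivo* (-0.43 ± 0.15, adjusted p = 0.04). This call was lost without 2D replicate 1 (adjusted p = 0.0506), 2D replicate 2 (adjusted p = 0.0503), *in vivo* replicate 1 (adjusted p = 0.0897), *in vivo* replicate 2 (adjusted p = 0.136) or D7 replicate 1 (adjusted p = 0.358).

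At D7 the 40 genes thus fell into 3 kinds by the tests against D3 organoids and 2D cells. For 21 genes, among them the 3 cyclins, Plk1, Spc24, Birc5, Top2a and Mki67, D7 organoids were lower than D3 organoids and still higher than 2D cells. For 9 genes (Cdk1, Aurka, Bub1, Bub3, Ube2c, Cenpa, Aurkb, Anln and Ect2), D7 organoids were lower than D3 organoids and not past the threshold against 2D cells. For 10 genes (Cdc25b, Cdc25c, Cdc20, Cenpf, Nuf2, Spc25, Knl1, Incenp, Kif4 and Tpx2), the fall from D3 did not pass and D7 organoids were higher than 2D cells. The first and last calls share the D7 libraries, and a missed threshold does not show equal levels. Of the 30 falls from D3 to D7, 20 held whichever library was left out. Of the 31 calls of D7 over 2D, 23 did so.

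Promoter sequence was read for the genes with the widest and the narrowest falls from D3 to D7, because genes of G2 and mitosis are known for 2 short elements, the cell cycle homology region (CHR), bound by the MuvB complex, and the CCAAT box, bound by NF-Y. Sequence came from GRCm39, the build named by the submitters, at the start of the canonical transcript in GENCODE M39, from 200 bases before to 30 bases after the start. Capitals mark TTTGAA or TTCGAA (CHR) and CCAAT, on either strand, so that ATTGG is a CCAAT box on the other strand. The 3 genes with the largest falls come first.
Aurkb (chr11:68936267-68936496, plus strand): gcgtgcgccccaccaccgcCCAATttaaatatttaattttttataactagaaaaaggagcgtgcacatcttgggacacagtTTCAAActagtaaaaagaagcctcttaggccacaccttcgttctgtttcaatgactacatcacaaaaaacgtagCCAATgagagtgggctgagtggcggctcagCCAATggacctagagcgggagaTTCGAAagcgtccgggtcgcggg
Cdk1 (chr10:69188739-69188968, minus strand): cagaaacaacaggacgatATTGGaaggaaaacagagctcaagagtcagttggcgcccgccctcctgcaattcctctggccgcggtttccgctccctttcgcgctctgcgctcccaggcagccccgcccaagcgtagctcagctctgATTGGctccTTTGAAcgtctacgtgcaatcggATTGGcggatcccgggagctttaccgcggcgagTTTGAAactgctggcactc
Cenpa (chr5:30823921-30824150, plus strand): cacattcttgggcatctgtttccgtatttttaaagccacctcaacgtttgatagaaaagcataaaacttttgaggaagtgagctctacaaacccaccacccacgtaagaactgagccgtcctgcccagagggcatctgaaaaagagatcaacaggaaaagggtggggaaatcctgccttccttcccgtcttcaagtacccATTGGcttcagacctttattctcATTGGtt
The 3 genes with the smallest falls, all short of the threshold, follow.
Cdc25b (chr2:131028562-131028791, plus strand): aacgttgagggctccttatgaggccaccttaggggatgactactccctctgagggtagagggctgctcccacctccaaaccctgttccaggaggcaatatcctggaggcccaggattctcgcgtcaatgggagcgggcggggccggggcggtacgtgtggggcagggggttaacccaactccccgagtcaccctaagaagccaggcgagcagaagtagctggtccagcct
Cenpf (chr1:189420283-189420512, minus strand): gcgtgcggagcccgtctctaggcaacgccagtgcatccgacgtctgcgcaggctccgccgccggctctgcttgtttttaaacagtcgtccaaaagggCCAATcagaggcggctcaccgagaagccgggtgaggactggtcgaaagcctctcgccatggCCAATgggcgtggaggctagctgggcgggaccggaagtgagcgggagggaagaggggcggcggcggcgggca
Knl1 (chr2:118877400-118877629, plus strand): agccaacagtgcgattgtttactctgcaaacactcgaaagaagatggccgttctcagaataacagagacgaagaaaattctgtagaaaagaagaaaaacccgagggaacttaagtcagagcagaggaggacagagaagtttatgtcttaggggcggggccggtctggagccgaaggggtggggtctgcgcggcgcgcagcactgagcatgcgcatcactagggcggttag
Aurkb and Cdk1 hold both elements in this stretch, Cenpa and Cenpf hold CCAAT boxes without a CHR match, and Cdc25b and Knl1 hold neither. For Cenpf and Knl1 this depends on where the printed stretch ends, because each has a CHR match that begins just past it and is counted in the longer windows described next. Among the 3 genes with the smallest falls, only Cdc25b lacks a CHR match in those windows, and among the 3 with the largest, only Cenpa lacks one. A match describes letters only and is no evidence of binding.

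Over windows of 300 bases (250 before to 50 after the start), 24 of the 40 mitotic genes (60%) held a CHR match on either strand, against 18.8% of 21770 protein-coding promoters and 15.4% of those tested here. CCAAT was found in 27 of 40 (67.5%) against 39.9% of all, and both elements together in 19 (47.5%) against 8.25%. The genes had been chosen by function, so that these shares describe the list. Of 79 further mitotic genes, described below, 45.6% held a CHR match and 32.9% held both elements. The box bound by NF-Y was found in 57% of these 79 genes and in 57.4% of 47 DNA replication genes. It was found in 61.5% of 13 genes on a list named for inhibitors and in 40% of 20 cell cycle regulators. Shares above those of all promoters were thus not limited to the 40 genes. Among 47 DNA replication genes, 8.51% held a CHR match, while 23.4% held TTTGGCGC or TTTCGCGC, E2F sites in G1/S promoters, against 2.5% of the mitotic genes and 1.01% of all promoters. Within the 40 genes, the D3 to D7 change had a median of -0.98 for the 24 with a CHR match (19 past the threshold) and -0.81 for the 16 without (11 past the threshold), over the ranges -2.19 to -0.35 and -1.75 to -0.28. The difference between these medians was small beside the spread within each set and was not tested.

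Other genes of the cell cycle gave the background to these changes. A list of 79 further mitotic genes (condensins, cohesin regulators, centrosome and centromere proteins) was counted in the same fits. It held 69 genes higher and 0 lower in D3 organoids than in 2D, 56 lower and 1 higher in 2D than *in vivo*, and 43 lower and 1 higher at D7 than at D3. The shares over all genes tested in these comparisons are those given above. Its 2 genes of highest CPM were the condensin subunits Smc4 and Smc2. Smc4 was at 888 and 712 CPM *in vivo*, 328 and 287 CPM in 2D, 1124 and 819 CPM at D3 and 588 and 547 CPM at D7, and was lower in 2D than *in vivo* (log2 fold change -1.38 ± 0.17, adjusted p = 4.9e-06). Smc2 was also lower in 2D than *in vivo* (-0.58 ± 0.17, adjusted p = 0.0092), a call lost without 2D replicate 2 (adjusted p = 0.105) or *in vivo* replicate 1 (adjusted p = 0.109), and rose at D3 over *in vivo* (0.73 ± 0.16, adjusted p = 0.0026). Of 47 DNA replication genes, 44 were higher at D3 than in 2D, 30 were higher at D3 than *in vivo*, and 30 were lower at D7 than at D3, with medians of 1.82, 0.77 and -0.83. At D7 against *in vivo*, 7 of them were higher and 9 lower (median -0.03), near the shares over all genes given above for that comparison (18.0% higher and 16.8% lower). Lig1, the replicative DNA ligase, remained above *in vivo* at D7 (log2 fold change 0.84 ± 0.16, adjusted p = 0.00048). Rfc1, the clamp loader subunit, did not pass at D7 over *in vivo* (0.17 ± 0.15, adjusted p = 0.42). Its rise at D3 (0.51 ± 0.15, adjusted p = 0.018) was lost without *in vivo* replicate 1 (adjusted p = 0.0777), *in vivo* replicate 2 (adjusted p = 0.0583) or D3 replicate 1 (adjusted p = 0.135).

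**Figure D4:**
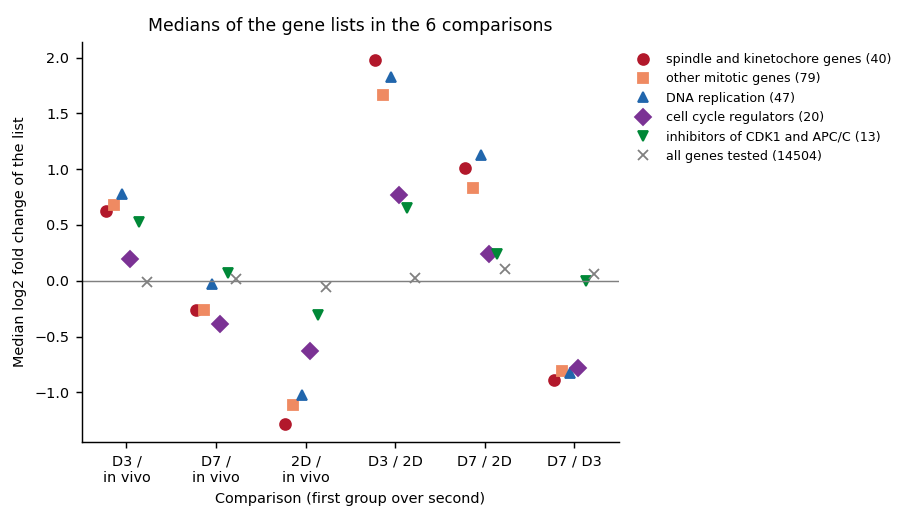
Median log2 fold change of 5 gene lists and of all genes tested in the 6 comparisons (first group over second). The 40 spindle and kinetochore genes, the 79 other mitotic genes and the 47 DNA replication genes share the sign of their medians in all 6 comparisons, with medians of 1.66 to 1.98 at D3 over 2D. The 13 genes on the list named for inhibitors, not all of which inhibit, lie closer to 0 than these lists in every comparison except D7 over *in vivo*, where DNA replication is closer.

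Lists of genes that regulate or restrain the cycle were counted in the same way. Of 20 cell cycle regulators (E2F, retinoblastoma and MuvB family members and FOXM1 among them), 11 were higher and 0 lower at D3 than in 2D (all genes: 19.3% higher and 19.1% lower). At D7 against D3, 11 were lower and 0 higher, with a median of -0.78 (all genes: 9.91% lower and 10.9% higher). At D7 against *in vivo*, 8 were lower and 1 higher, with a median of -0.39 (all genes: 16.8% lower and 18.0% higher). At D3 against *in vivo*, 3 were higher, near the 14.1% of all genes higher there, and 1 was lower, where 14.0% of all genes were (median 0.20). The 2 of highest CPM did not follow the mitotic genes in every comparison. Rbbp4, a histone chaperone of MuvB and other complexes, passed in none of the 6 comparisons with all 8 libraries. Tfdp2, a partner of E2F factors, was lower in 2D than *in vivo* (log2 fold change -0.68 ± 0.17, adjusted p = 0.0036), and D3 organoids did not differ from 2D past the threshold (0.15 ± 0.17, adjusted p = 0.53). The last list, named for inhibitors of CDK1 and the APC/C, held 13 genes. Not all of them inhibit: Fzr1 is an activator of the APC/C, and Mad2l1bp turns the checkpoint off. Of the 13, 2 were higher and 5 lower in 2D than *in vivo*, where 19.9% of all genes were higher and 21.7% lower. At D3, 7 were higher and 3 lower than in 2D (all genes: 19.3% higher and 19.1% lower). Against *in vivo*, 5 were higher and 2 lower at D3 (all genes: 14.1% higher and 14.0% lower). Cdkn1a (p21), the inhibitor of cyclin-dependent kinases induced by p53, was at 21.8 and 22.3 CPM *in vivo*, 519 and 589.7 CPM in 2D, 107 and 58.3 CPM at D3 and 47.8 and 56.9 CPM at D7. Both 2D libraries stood far above the other 6, among which the *in vivo* libraries were lowest. It was higher in 2D than *in vivo* (log2 fold change 4.65 ± 0.25, adjusted p = 1.8e-10) and lower at D3 than in 2D (-2.75 ± 0.22, adjusted p = 3.9e-08), the opposite direction to all 40 mitotic genes in that comparison. Elsewhere it moved with them: both D3 libraries were above both *in vivo* libraries, and Cdkn1a was lower at D7 than at D3. That last call was lost without D3 replicate 1 or without any 1 of the 2D and D7 libraries. Cdkn1c (p57), the imprinted inhibitor of the same family, was at 167 and 171 CPM *in vivo*, 98.0 and 125 CPM in 2D, 55.1 and 39.6 CPM at D3 and 145 and 117 CPM at D7. It was lowest at D3, below *in vivo* (log2 fold change -1.84 ± 0.20, adjusted p = 1.3e-06) and below 2D (-1.24 ± 0.19, adjusted p = 7.4e-05), and rose from D3 to D7 (1.48 ± 0.19, adjusted p = 7.3e-05). Cdkn1c was also lower in 2D than *in vivo*, the direction of most mitotic genes there, a call lost without 2D replicate 1 or *in vivo* replicate 2.

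Counting could blur a few of the genes. Besides Cdk1, Bub3 and Kif20a, the spans of Ccna2, Cdc25c, Aurka, Cdc20 and Kif4 overlap another gene on the other strand that holds more than 600 counts over the 8 libraries. Of the last 500 bases of the transcripts of each gene, 30.3% of the 50-base words of Ccnb1 occur also in its pseudogenes, none of which held more than 3 counts, and no other mitotic gene exceeded 8.09%. Some shared words lie in sequence found in many genes. Spc24 shared 6.29% of its words with 707 genes, of which the highest held 48883 counts, and Ttk, Kif11 and Prc1 shared 2.51%, 2.38% and 2.08% with 579, 235 and 456 genes. How reads from such words were counted is not given in the sources used here.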

How the data were processed

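The authors aligned QuantSeq reads to GRCm39 with STAR and deposited 1 file of raw read counts per gene for each library, without a header. The annotation release, the strand setting and the treatment of multi-mapping reads are not given in the sources used here. Gene IDs were paired with symbols by GENCODE M39 (56236 matched, 687 did not). Members and lists were chosen with earlier results of these data known. Groups and replicates came from the labels. Genes that reached 1 CPM in 3 or more libraries were scaled by TMM and tested with edgeR 4.0.16 (R 4.3.3) by a quasi-likelihood fit with 1 mean per group, and p-values were adjusted by Benjamini-Hochberg. With 2 libraries against 2, an exact permutation test cannot go below p = 0.333, so that the test leans on a spread shared by all genes and groups. The p-values measure the spread between labelled replicates only. Values in every library were given for the member of highest mean CPM in its role, the 2 members with the largest and the 2 with the smallest absolute change in each comparison, and Mki67, Top2a and Cdk1. From each other list the 2 genes of highest mean CPM were named. Alternatives were DESeq2 1.42.0, limma-voom (limma 3.58.1), other scalings and filters, a replicate block, and leaving out each library in turn. In simulated data, changes of 2-fold or more planted at D3 over *in vivo* came back in the right direction where called. Smaller changes, such as most of those seen in that comparison, were not planted. Tables, sequences and plots were made with Python 3.11.15.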

Additional observations from a re-analysis of the deposited data

How the results depend on the processing

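No median of the mitotic genes and no called value of the 19 genes given in every library changed direction under the alternatives run. Counts of mitotic genes called stayed within 1.5 times the reported count under other scalings, tests and filters. Of the named genes, Cdk1 was lost with the DESeq2 Wald test at D7 and in 2D over *in vivo* (adjusted p = 0.12 and 0.18). Nuf2 in 2D over *in vivo* was lost with DESeq2, limma-voom, no filter on low counts and the 2 groups alone (0.059 to 0.093). Ube2c and Mki67 at D7 over *in vivo* were lost with no filter (0.052 and 0.081). Among changes of at least 2-fold they were 4 at D3 over *in vivo*, 2 at D7 over *in vivo*, 20 at D7 over 2D and 18 at D7 over D3. Cell cycle regulators called at D3 over *in vivo* numbered 4, and 7 both with library size only and with limma-voom. Library size only moved the median of all genes to -0.24 in 2D over *in vivo*, 0.29 at D3 over 2D and 0.31 at D7 over 2D, and that of the mitotic genes to -1.46, 2.24 and 1.22. Leaving out 1 library gave 10 to 24 calls at D3 over *in vivo*, 3 to 12 at D7 over *in vivo*, 27 to 37 in 2D over *in vivo*, 38 to 40 at D3 over 2D, 24 to 31 at D7 over 2D and 22 to 32 at D7 over D3. A group left with 1 library was assumed to vary like the others. The replicate numbers pair nothing in the labels, and same-numbered libraries deviated together only weakly (correlations of 0.0129 to 0.114). With the replicate number as a block, no call was lost, and the counts were 28, 14, 37, 40, 32 and 32 in the same order. Few counts limit Cdc25c, Nuf2 and Aurkb, whose SE were the widest of the genes shown.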
